A study of Mus musculus with 9 samples.

Results

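The nuclear genes for complexes II to V of oxidative phosphorylation were followed in mouse regulatory T cells (Treg cells) with and without a floxed Esrrg gene. Genes were taken by symbol: Sdha, Sdhb, Sdhc, Sdhd, Cyc1, Cycs, and every symbol that starts with Uqcr, with Cox4 to Cox8 or with Atp5. This gave 50 of the 26683 genes in the count table. Of the 50, 4 belonged to complex II, 9 to complex III and 1 to cytochrome c, the carrier between complexes III and IV. A further 15 belonged to complex IV and 21 to ATP synthase. They comprised 43 genes for subunits, 3 for related proteins whose symbols fit the same pattern (Cox7a2l, Atp5s and Atp5sl) and 4 pseudogenes. The expression filter kept 43 of them, namely 40 subunit genes and the 3 related genes, among 12738 genes tested. The 7 not tested were Cox4i2, Cox6a2, Cox7a1 and the 4 pseudogenes, each with 26 counts or fewer over all libraries.

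Complex II oxidises succinate to fumarate and passes the electrons to ubiquinone, so it belongs to the citric acid cycle and the respiratory chain alike. Complex III moves electrons from ubiquinol to cytochrome c, complex IV from cytochrome c to oxygen, and ATP synthase uses the proton gradient that complexes I, III and IV build. Complex II is encoded wholly in the nucleus, whereas complexes III, IV and ATP synthase also contain subunits made inside the mitochondrion. Treg cells are known for a strong reliance on oxidative phosphorylation.

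Each library was bulk RNA from splenic CD4+ Foxp3-YFP+ cells of 1 female mouse aged 2 to 3 months. The 5 control libraries (WT) came from B6N.Foxp3YFP-Cre mice, and the 4 knockout libraries (KO) from EsrrgNf/f.Foxp3YFP-Cre mice. Both groups therefore carried Foxp3-driven Cre recombinase with a yellow fluorescent reporter, which acts in cells that express Foxp3, and only KO mice also carried the floxed Esrrg allele. Esrrg encodes a nuclear receptor, estrogen-related receptor gamma, whose known targets in heart and muscle include genes of oxidative phosphorylation. In the titles, WT library names start with B6-N and KO library names with Err, and a difference of strain or colony that these names may mark cannot be told apart from genotype. Tests compare mice, so p-values measure the spread between these mice. In bulk RNA, fewer cells of a type and less RNA per cell cannot be told apart.

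Total counts ran from 15269014 to 17425634 per library. Esrrg itself had 0 counts in all 9 libraries, which allows up to 0.0206 CPM (counts scaled to a common library size) over all of them, so its loss could not be checked. The Treg marker list (Foxp3, Il2ra, Ctla4, Ikzf2, Cd4 and Cd3e) summed to 4185 to 4407 CPM in WT and 4129 to 4409 CPM in KO. Libraries KO 1 and KO 4 held more RNA of plasma cell and neutrophil markers than the other libraries. Plasma cell markers summed to 120 to 170 CPM in WT and to 262, 151, 179 and 626 CPM in KO 1 to KO 4, with 5 of 5 tested markers higher on average in KO and 1, Xbp1, past the test. Neutrophil markers summed to 1.94 to 4.77 CPM in WT and to 34.3 CPM in KO 1, 1.48 CPM in KO 2, 4.596 CPM in KO 3 and 125 CPM in KO 4, while macrophage and dendritic cell markers reached 65.4 CPM in WT 1, 61.2 CPM in KO 1 and 100.4 CPM in KO 4. No marker of these 3 lists was at 0 in all libraries, but the neutrophil marker Ly6g was at 0 in WT 3, KO 2, KO 3 and KO 4 and S100a9 in KO 2. KO 4, labelled female, had 27 counts of Xist, against 27355 to 35693 in the others. Counts of Y-linked genes were 2 in KO 4, 23 in WT 2, 3 in WT 5 and 0 in the other libraries. WT 2 also stood apart: 185 genes had 10 or more counts there and at most 1 in each other library, and the epithelial keratin gene Krt8 had 424 counts there against 0 to 16 elsewhere. The part that these differences play in the results was not tested. Some results are given below with and without these libraries, and the others, those of complex I among them, with all libraries only.

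Transcripts of complexes II to V were abundant in Treg cells of both genotypes. Per kilobase of transcript, the WT median over tested genes was 60.0 CPM for complex II, 75.9 CPM for complex III, 102 CPM for complex IV and 97.2 CPM for ATP synthase. The highest level was that of Atp5b, the catalytic beta subunit of the F1 head of ATP synthase, at 319 CPM per kilobase. Uqcrh, the hinge protein of complex III, followed at 267, Cox4i1, the common form of complex IV subunit 4, at 256, and Atp5a1, the F1 alpha subunit, at 234 CPM per kilobase. In all, 36 of the 43 tested genes were at 50 CPM per kilobase or more in WT. The low end held Sdhc, a membrane anchor of complex II, at 16.9 CPM per kilobase and Cycs, somatic cytochrome c, at 3.94 CPM per kilobase. The testis form Cox6b2 and the ATP synthase gene Atp5l, which encodes membrane subunit g, were lower still, at 2.40 and 2.60 CPM per kilobase. Levels per length depend on the transcript chosen, most for Atp5g1, which was at 57.2 CPM per kilobase of its shortest principal transcript and at 7.23 with its longest principal transcript. The principal transcript of Cycs is long, at 3123 bases, and 28.5% of its 50-base stretches occur among 76 other genes. The low level of Cycs therefore also depends on how shared reads were counted.

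**Figure D1:**
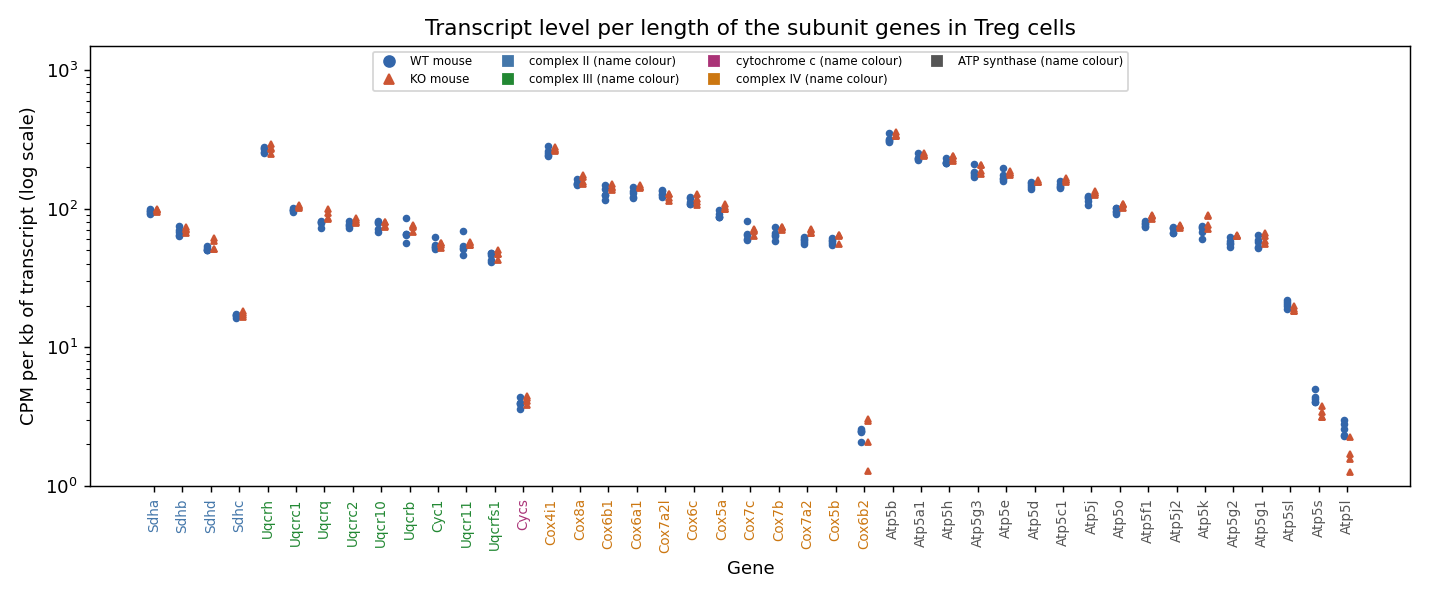
Level of each gene with at least 100 counts in all, as CPM per kilobase of transcript (log scale), with 1 point per WT mouse (circles) or KO mouse (triangles) and gene names coloured by complex. Of the 43 tested genes, 36 lie at 50 CPM per kilobase or more in the WT mean, and Cycs, Cox6b2, Atp5s and Atp5l lie far below.

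The tissue-restricted forms of complex IV subunits were at the edge of detection. Cox4i2, the form of subunit 4 linked to low oxygen, had 1 count in all 9 libraries, and Cox6a2, the heart and muscle form of subunit 6A, had 3 counts. Cox7a1, the heart and muscle form of subunit 7A, had 26 counts and made up 0.377% ± 0.174 (SD, n = 5) of Cox7a1 and Cox7a2 counts in WT and 0.464% ± 0.276 (SD, n = 4) in KO. Cox6b2 made up 1.36% ± 0.0845 of Cox6b counts in WT and between 0.668% and 1.56% in each library. The common forms Cox4i1, Cox6a1, Cox6b1 and Cox7a2 gave nearly all counts of their families in both genotypes. Of the genes for the identical mature subunit c of the ATP synthase rotor ring, Atp5g3 gave 68.9% ± 0.994 of the counts in WT and 68.3% ± 0.949 in KO, Atp5g1 gave 17.9% ± 0.752 and 17.8% ± 0.696, and Atp5g2 gave 13.3% ± 0.367 and 13.9% ± 0.852 (SD, n = 5 and 4). Their order was the same in every library, and each difference between genotypes was smaller than the larger of the 2 SDs. All 50-base stretches of Atp5g2 occur in another gene too, so its share depends on how shared reads were counted.

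In KO, subunit transcripts leaned slightly upwards. Of the 43 tested genes, 38 had a log2 fold change (KO over WT) above 0, with a median of 0.09, whereas over all 12738 genes 51.5% were above 0 with a median of 0.01. With edgeR's quasi-likelihood test and an adjusted p threshold of 0.05, 2 of the 43 rose (Atp5f1 and Cox7a2) and none fell. Over all genes 3.28% were called, 1.40% as higher and 1.88% as lower. At an unadjusted p under 0.05, 15 of the 43 were higher and 3 lower, against 11.1% and 10.5% of all genes. No test was made of the 43 as a set, since they were chosen with results of these data in view and share their libraries. The upward lean was smaller without KO 1 and KO 4, where 26 of 43 were above 0 with a median of 0.05. In that fit edgeR called none (0.908% of all genes were called), 5 were higher at an unadjusted p under 0.05, and 49.0% of all genes were above 0. Without WT 2 as well, 34 of 43 were above 0 with a median of 0.09. At an unadjusted p under 0.05, 16 were higher, and again edgeR called none, against 1.89% of all genes. WT 2 was the highest control for 31 of the 43, so leaving it out favours higher values in KO for these genes. The share of all genes at an unadjusted p under 0.05 was not counted in these fits.

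**Figure D2:**
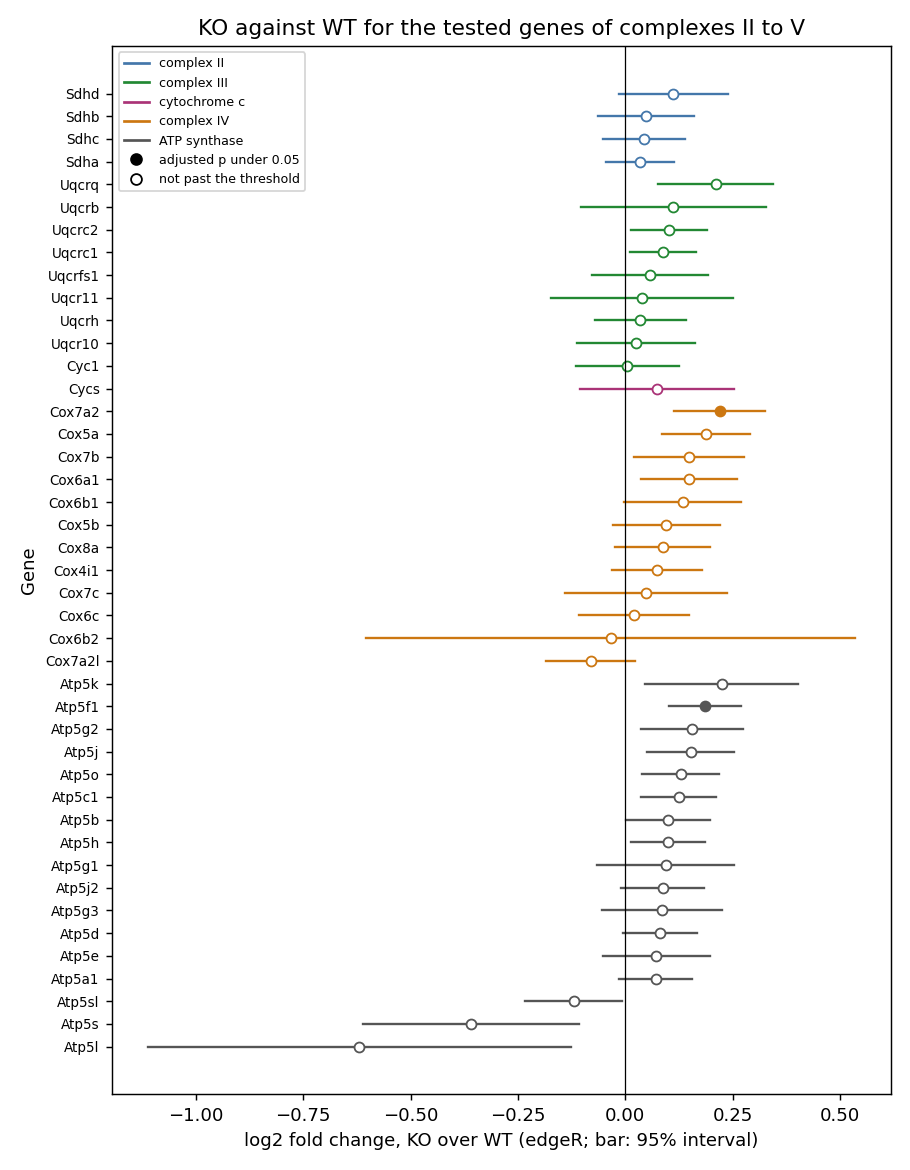
Log2 fold change (KO over WT) of the 43 tested genes with its 95% interval from edgeR (x axis), grouped and coloured by complex, with filled points for an adjusted p under 0.05. Atp5f1 and Cox7a2 are the 2 filled points, and 38 of the 43 points lie to the right of 0.

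Complex II had the smallest difference by its median log2 fold change, 0.05, among the 4 complexes. Sdha, the flavoprotein subunit that oxidises succinate, was at 265.5, 278.9, 288.1, 270.3 and 277.6 CPM in WT 1 to WT 5 and at 290.8, 282.0, 273.0 and 285.0 CPM in KO 1 to KO 4. The groups overlapped, with KO 2, KO 3 and KO 4 inside the WT range and KO 1 above it. Its log2 fold change was 0.03 ± 0.04 (SE, n = 5 and 4, edgeR adjusted p = 0.614), with a 95% interval from -0.04 to 0.11. The iron-sulphur subunit Sdhb (0.05 ± 0.05, adjusted p = 0.610) and the membrane anchor Sdhc (0.04 ± 0.04, adjusted p = 0.594) had similar values in the same edgeR fit. The other anchor, Sdhd, was at 61.9 to 66.5 CPM in WT and at 71.9, 63.6, 62.8 and 76.0 CPM in KO 1 to KO 4. Its 2 high values were those of KO 1 and KO 4, and its log2 fold change of 0.11 ± 0.06 (edgeR adjusted p = 0.283) became -0.01 without these 2 libraries. None of the 4 passed the edgeR test or reached an unadjusted p under 0.05, none passed with DESeq2, and no gene of complex II separated the groups.

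In complex III all 9 genes had a log2 fold change above 0. None passed the edgeR test, with 3 of 9 higher at an unadjusted p under 0.05, and none passed with DESeq2. The median was 0.06, and the range was 0.01 to 0.21. The highest was Uqcrq, a small accessory subunit, at 32.6, 33.3, 29.3, 32.3 and 31.8 CPM in WT 1 to WT 5 and at 37.8, 34.0, 34.9 and 40.7 CPM in KO 1 to KO 4. Its groups did not overlap, and KO 1 and KO 4 were the 2 highest libraries. Over all genes, 4.15% had every KO library above every WT library. The log2 fold change of Uqcrq was 0.21 ± 0.06 (edgeR adjusted p = 0.0825), and 0.11 (adjusted p = 0.486) without KO 1 and KO 4. The core proteins, which hold the complex together on its matrix side, had small differences of 0.10 ± 0.04 for Uqcrc2 (edgeR adjusted p = 0.173) and 0.09 ± 0.04 for Uqcrc1 (edgeR adjusted p = 0.180). Uqcrh, the most abundant per length, was at 0.03 ± 0.05 (edgeR adjusted p = 0.720). Single libraries stood out for the small accessory subunits: Uqcr11 was at 20.6 to 24.1 CPM in 4 WT libraries and at 30.9 CPM in WT 2, and Uqcrb at 30.4 to 35.4 CPM in 4 WT libraries and at 45.8 CPM in WT 2. Cycs was at 11.2 to 13.5 CPM in WT and 11.9 to 13.8 CPM in KO, and its groups overlapped (0.07 ± 0.08, edgeR adjusted p = 0.636).

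In complex IV, 10 of 12 tested genes had a log2 fold change above 0, and the median was 0.09. Of the 12, 1 rose past the test, against 1.40% of all genes. The gene that passed was Cox7a2, the common form of subunit 7A, a small subunit that spans the inner membrane. It was at 39.8, 41.0, 36.5, 38.0 and 39.1 CPM in WT 1 to WT 5 and at 46.1, 43.9, 43.9 and 47.3 CPM in KO 1 to KO 4. All KO libraries lay above all WT libraries, as they did for 4.15% of all genes. The mean rose from 38.9 ± 1.71 CPM (SD, n = 5) to 45.3 ± 1.66 CPM (SD, n = 4), a log2 fold change of 0.22 ± 0.05 (95% interval 0.11 to 0.33, edgeR adjusted p = 0.0325). The call was lost without KO 1 and KO 4 (0.17, adjusted p = 0.221). It was also lost with any 1 of WT 3, WT 4, WT 5, KO 1, KO 3 or KO 4 left out (adjusted p from 0.0569 to 0.107), where the value was 0.19 to 0.23. None of the 50-base stretches of Cox7a2 occurs in another gene, and no other gene's exons overlap it (mm10, chromosome 9, 79755361 to 79759878, minus strand).

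Cox5a, a matrix-side subunit, was at 59.5, 62.8, 56.0, 56.6 and 56.5 CPM in WT 1 to WT 5 and at 69.8, 64.8, 63.9 and 67.0 CPM in KO 1 to KO 4. Its groups did not overlap either, with WT 2 the highest control, and 4.15% of all genes had every KO library above every WT library. The log2 fold change of Cox5a, 0.19 ± 0.05, missed the threshold (edgeR adjusted p = 0.0503). Without KO 1 and KO 4 it was 0.14 (edgeR adjusted p = 0.296). Its exons overlap Gm26631 on the opposite strand, and 32.0% of its 50-base stretches occur in other genes. Cox6a1, the common form of subunit 6A, was at 68.5 to 81.8 CPM in WT and 80.1 to 84.5 CPM in KO (0.15 ± 0.05, edgeR adjusted p = 0.128). Cox7b (0.15 ± 0.06, edgeR adjusted p = 0.173), Cox6b1 (0.13 ± 0.06, edgeR adjusted p = 0.239), Cox8a (0.09 ± 0.05, edgeR adjusted p = 0.343) and the abundant Cox4i1 (0.07 ± 0.05, edgeR adjusted p = 0.403) were higher on average without passing. The 2 genes below 0 were Cox6b2, at about 1 CPM, and Cox7a2l. Cox7a2l does not encode a subunit but a relative of subunit 7A known as a factor for supercomplexes of complexes III and IV. Its function in these mice was not examined. It was at 144.5, 134.5, 138.4, 145.9 and 130.1 CPM in WT 1 to WT 5 and at 128.6, 137.5, 136.4 and 122.0 CPM in KO 1 to KO 4, overlapping groups with a log2 fold change of -0.08 ± 0.05 (edgeR adjusted p = 0.349).

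With the related genes counted, ATP synthase showed the largest proportional difference of summed transcript level. It had 14 of 17 tested genes above 0 and a median log2 fold change of 0.09. These 14 ran from 0.07 to 0.22, while the other 3 genes, Atp5sl, Atp5s and Atp5l, ran from -0.12 to -0.62. The F1 head carried small differences: 5 of 5 genes were above 0 with a median of 0.08, and none passed. Atp5b was at 601.0, 673.0, 583.2, 609.5 and 594.0 CPM in WT 1 to WT 5 and at 650.9, 641.8, 645.8 and 686.0 CPM in KO 1 to KO 4. WT 2 was the 1 control among the KO values (0.10 ± 0.05, edgeR adjusted p = 0.220). Atp5a1 was at 554 to 621 CPM in WT and at 597 to 624 CPM in KO (0.07 ± 0.04, edgeR adjusted p = 0.308), again with WT 2 highest among controls. Atp5c1, the gamma subunit that turns inside the head, had the largest difference of the F1 genes (0.12 ± 0.04, edgeR adjusted p = 0.106).

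The peripheral stalk, which holds the F1 head still against the rotor, had 4 of 4 genes above 0, with a median of 0.14, 1 of 4 past the test and 2 of 4 with no overlap between groups. Over all genes, 1.40% were called as higher and 4.15% had every KO library above every WT library. Atp5f1, subunit b of the stalk, was at 125.4, 130.8, 119.4, 126.0 and 120.5 CPM in WT 1 to WT 5 and at 142.4, 144.8, 136.4 and 142.6 CPM in KO 1 to KO 4. Every KO library lay above every WT library, and neither KO 1 nor KO 4 was the highest. The mean rose from 124 ± 4.59 CPM (SD, n = 5) to 142 ± 3.62 CPM (SD, n = 4), a log2 fold change of 0.19 ± 0.04 (95% interval 0.10 to 0.27, edgeR adjusted p = 0.0243). Without KO 1 and KO 4 the value was 0.17 and the call was lost (adjusted p = 0.131). It was also lost with any 1 of WT 3, WT 4, WT 5 or KO 4 left out (adjusted p from 0.0599 to 0.0808), where the value was 0.17 to 0.19. Exons of Atp5f1 (mm10, chromosome 3, 105942698 to 105960099, minus strand) overlap Wdr77 and Gm42890 on the opposite strand, and 38.7% of its 50-base stretches occur in other genes. Wdr77 itself had a log2 fold change of -0.03 ± 0.09 (edgeR adjusted p = 0.899). Atp5j, coupling factor 6, was at 72.5 to 83.8 CPM in WT and 85.9 to 91.7 CPM in KO, with no overlap (0.15 ± 0.05, edgeR adjusted p = 0.0955). Atp5o, which joins the stalk to the head and confers oligomycin sensitivity, was at 77.2 to 84.9 CPM in WT and 84.8 to 91.3 CPM in KO (0.13 ± 0.04, edgeR adjusted p = 0.102). The fourth stalk gene, Atp5h, had a smaller value (0.10 ± 0.04, edgeR adjusted p = 0.175). Of the 50-base stretches, 66.6% for Atp5h, 50.3% for Atp5o and 6.02% for Atp5j occur in other genes. Exons of Atp5j overlap Gabpa on the opposite strand.

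Among the genes of the membrane part, Atp5g2 separated the groups at 23.4 to 27.6 CPM in WT and 27.9 to 28.5 CPM in KO (0.16 ± 0.06, edgeR adjusted p = 0.132). Every KO library lay above every WT library for 4.15% of all genes. The more abundant Atp5g3 overlapped, at 121 to 150 CPM in WT and 127 to 149 CPM in KO (0.09 ± 0.06, edgeR adjusted p = 0.465), as did Atp5g1 (0.09 ± 0.07, edgeR adjusted p = 0.481). Atp5k, subunit e, which helps ATP synthase form dimers, had the largest positive value of all 43 genes (0.22 ± 0.08, edgeR adjusted p = 0.146). It was at 22.5 to 28.0 CPM in WT and at 33.1, 28.4, 26.6 and 33.2 CPM in KO 1 to KO 4, so the height came from KO 1 and KO 4, and the value was 0.08 without them.

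Lower values in KO were also seen for Atp5l, Atp5s and Atp5sl, which were singled out after their values were seen. Atp5l was at 1.63, 1.27, 1.39, 1.51 and 1.25 CPM in WT 1 to WT 5 and at 0.684, 1.22, 0.853 and 0.920 CPM in KO 1 to KO 4, with no overlap. Every KO library below every WT library was found for 4.92% of all genes. Its log2 fold change of -0.62 ± 0.23 did not pass (edgeR adjusted p = 0.145) and rests on 173 counts over all libraries. Subunit g is a regular part of the enzyme, yet Atp5l was at 2.60 CPM per kilobase in WT against 70.0 for Atp5k (subunit e) and 70.6 for Atp5j2 (subunit f), and 84.8% of the 50-base stretches of Atp5l occur in 14 other genes, so where its reads were counted cannot be told with certainty. Atp5s, also called factor B, was at 7.37, 6.002, 5.98, 6.45 and 6.26 CPM in WT 1 to WT 5 and at 5.59, 4.69, 4.66 and 5.03 CPM in KO 1 to KO 4, again with no overlap (-0.36 ± 0.12, edgeR adjusted p = 0.103). The value was -0.46 without KO 1 and KO 4, and Atp5s shares no 50-base stretch with another gene. Atp5sl, whose product is known as an assembly factor of complex I, was at 44.98 to 52.0 CPM in WT and 43.8 to 47.2 CPM in KO (-0.12 ± 0.05, edgeR adjusted p = 0.206). All 3 related genes, Cox7a2l included, were below 0, whereas 38 of the 40 tested subunit genes were above 0.

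**Figure D3:**
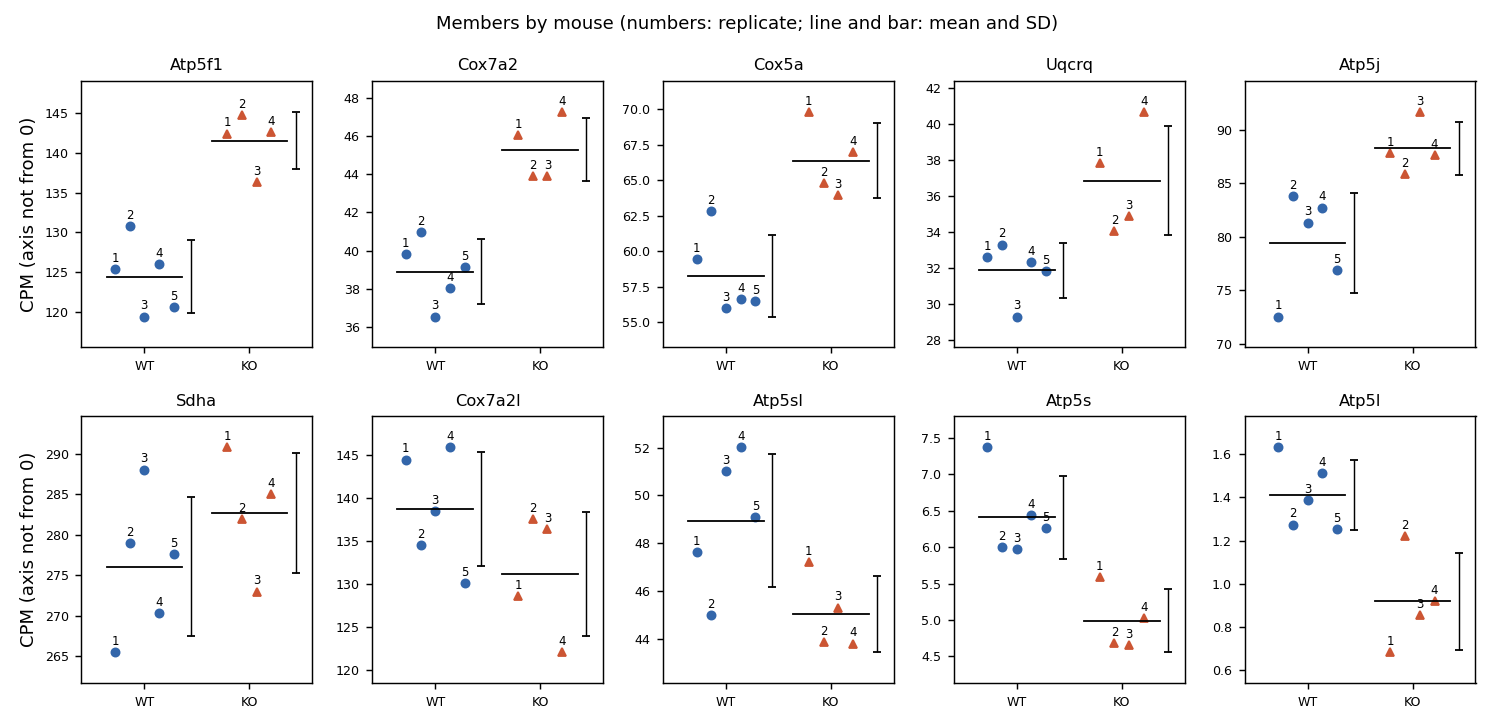
CPM of 10 genes in each mouse, with WT as circles and KO as triangles, replicate numbers beside the points, and lines and bars for the mean and SD (axes do not start at 0). Atp5f1, Cox7a2, Cox5a, Uqcrq and Atp5j have all KO mice above all WT mice, Sdha, Cox7a2l and Atp5sl overlap, and Atp5s and Atp5l have all KO mice below.

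Summed over its genes, related genes included, each complex was higher on average in KO. Complex II differed least, with 471 ± 9.81 CPM in WT and 487 ± 16.5 CPM in KO (SD, n = 5 and 4), a difference of 3.41%. Complex III was at 723 ± 32.4 and 759 ± 22.0 CPM (5.00%), complex IV at 876 ± 44.5 and 927 ± 23.8 CPM (5.76%), and ATP synthase at 2307 ± 106 and 2464 ± 44.8 CPM (6.82%). The complex IV sum includes Cox7a2l, which is not a subunit gene and was at 139 CPM in WT and 131 CPM in KO. The order of complex IV and ATP synthase depends on counting the related genes. The groups overlapped in all 4 complexes. For complexes III, IV and ATP synthase the overlap came from WT 2 alone, at 777, 944 and 2483 CPM, since the next WT libraries were at 724, 883 and 2316 CPM and the lowest KO libraries at 731, 905 and 2422 CPM. In complex II, WT 2 and WT 3 both lay above KO 3, and only KO 1 and KO 4 lay above all controls. Atp5a1 and Atp5b made up 51.6% of the ATP synthase sum in WT. Averaged with equal weight per gene on the log2 scale, the difference was 0.04 for ATP synthase and 0.06 for complex II. It was 0.08 for complexes III and IV. With the related genes counted, the order of complex II and ATP synthase thus turned. The log2 ratio of the ATP synthase sum was 0.10, and the mean per gene gives the 3 low genes the same weight as the abundant ones. Of these low genes, Atp5s and Atp5sl do not encode subunits, and the turn rests on counting them.

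**Figure D4:**
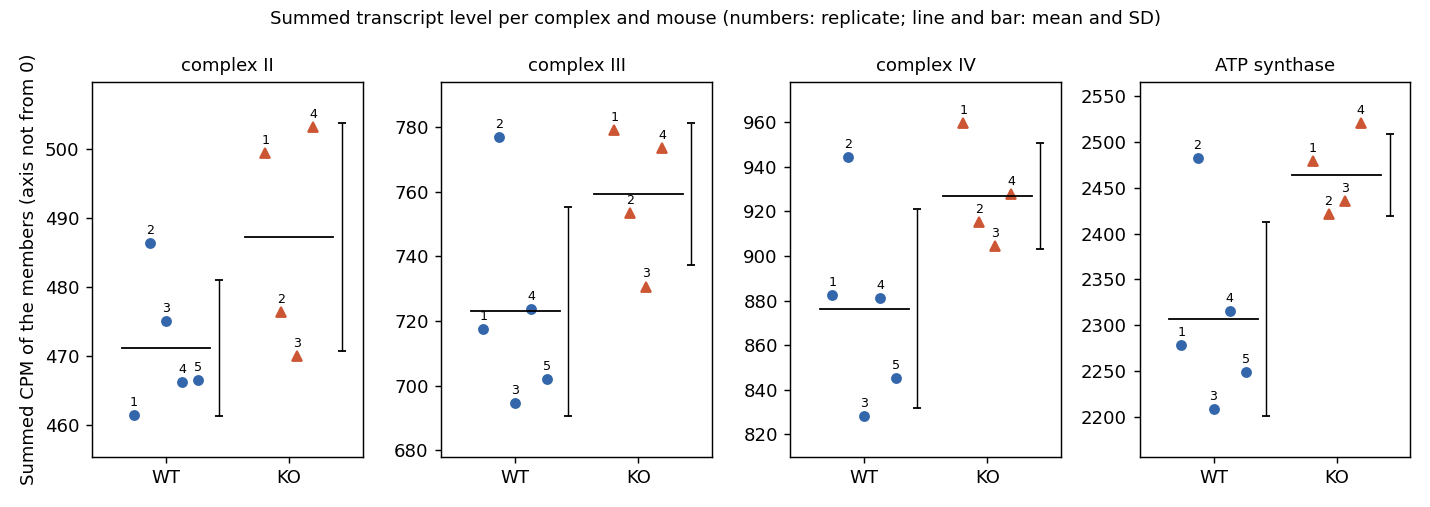
Summed CPM of each complex in each mouse (4 panels, axes do not start at 0), with WT as circles, KO as triangles, replicate numbers beside the points, and lines and bars for the mean and SD. WT 2 is the 1 control among the KO mice for complexes III, IV and ATP synthase, while KO 2 and KO 3 lie among the controls for complex II.

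Set against complex II in the same library, the other complexes differed little between genotypes. The ratio of summed ATP synthase to summed complex II CPM was 4.94, 5.11, 4.65, 4.97 and 4.82 in WT 1 to WT 5 and 4.96, 5.08, 5.18 and 5.01 in KO 1 to KO 4. The means differed by 3.36%, and the groups overlapped. For complex IV over complex II the means were 1.86 ± 0.0809 in WT and 1.90 ± 0.0395 in KO, and for complex III over complex II 1.53 ± 0.0522 and 1.56 ± 0.0180 (SD, n = 5 and 4). The order of the complexes by size of difference is therefore a description, and a difference between complexes was not tested. Without KO 1 and KO 4, the log2 ratios of the sums were 0.01, 0.04, 0.05 and 0.07 for complexes II, III, IV and ATP synthase, against 0.05, 0.07, 0.08 and 0.10 with all libraries.

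Single libraries stood out across the 43 genes. KO 4 was the highest of the 9 libraries for 15 genes, KO 1 for 10 and WT 2 for 9. WT 3 was the lowest for 20 genes and WT 5 for 8. Within WT, the library WT 2 was the highest for 31 of 43 genes, and its excess over the next control was largest for Uqcrb (29.2%), Uqcr11 (28.0%) and Cox7c (24.2%). Without WT 2, 19 of the 43 genes had all KO libraries above the other controls, against 8.21% of all genes, and 3 had all KO libraries below, against 7.58%. Because WT 2 was the highest control for 31 of the 43, leaving it out makes such gaps likelier in these genes. The shares over all genes do not allow for this, so the counts without WT 2 are a description only. The 19 were 0 of 4 in complex II, 5 of 9 in complex III, 5 of 12 in complex IV and 9 of 17 in ATP synthase. In that fit, 6 genes rose past the edgeR threshold, among 5.52% of all genes called, namely Atp5f1, Cox7a2, Cox5a, Cox6a1, Cox7b and Atp5c1. With WT 3, WT 4, WT 5 or KO 4 left out instead, edgeR called none of the 43. Of all genes, 0.767%, 1.06%, 0.925% and 0.803% were called. In these fits 10 to 11 of the 43 were higher at an unadjusted p under 0.05, and the share of all genes was not counted.

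**Figure D5:**
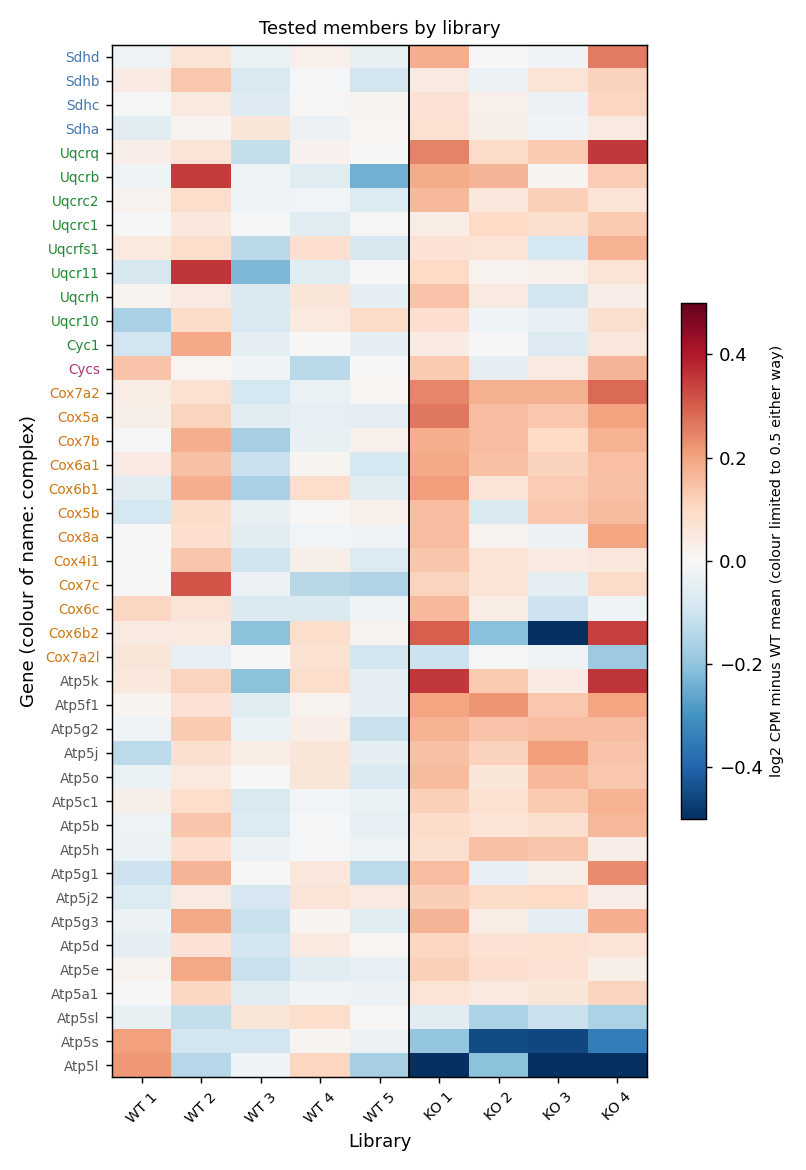
Log2 CPM of each tested gene (rows, names coloured by complex) in each library (columns) minus the WT mean, with colour limited to 0.5 either way. The columns of KO 1, KO 4 and WT 2 are the reddest, and Atp5sl, Atp5s and Atp5l form the blue rows at the bottom of the KO columns.

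Transcript length and promoter sequence were compared as properties that the choice of genes did not use. The tested genes were short, with a median longest transcript of 1232 bases against 3219 bases over all tested genes. Across all genes, the trend of log2 fold change with length stood at 0.04 at the median length of the 43. With this trend removed, their median was 0.06 and 37 of 43 were above 0. Exons of 11 of the 43 overlap a gene on the opposite strand, and 13 of the 43 share at least 20% of their 50-base stretches with another gene, while 17 share none.

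RefSeq promoter windows (GRCm38.p6, 250 bases before to 50 after the start) were matched for 36 of the 50 genes, in 40 windows, and searched on both strands for 5 motifs, some of which can overlap each other. The ETS core CCGGAAG, bound by factors such as GABP (also called NRF2), was in 30.0% of the windows against 8.86% of all 32851 windows. The palindromic NRF1 consensus was in 4 of the 40 (Atp5g2, Atp5k, Cox6a1 and Uqcrc1) against 0.971% of all windows, and the YY1 motif AAGATGGCG in 4 of the 40 (Atp5j, Atp5j2 and Atp5sl) against 1.40%. The windows of Atp5sl overlap and hold the same YY1 site. The estrogen-related receptor element TNAAGGTCA, the kind of site that Esrrg and its relatives bind, was in 5.0% (Atp5g3 and Sdhd) against 1.28% of all windows. The TATA box letters TATAAA were in 2.5% (Atp5l) against 13.6%. All windows include those of genes that were not tested here, so the shares are not matched for expression. These letter matches are a description of the windows and show no binding. Neither gene with an estrogen-related receptor match passed the test, and both overlapped between groups.

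The windows of the 2 genes that rose are shown first, since neither holds any of the 5 motifs, then those of both genes with the estrogen-related receptor element, and Cox6a1 as an example with an NRF1 site. Each runs 5′ to 3′ on the gene's strand, here minus for all, in lower case with motif matches in capitals. They lie at chr9:79759804-79760103 (Cox7a2), chr3:105959214-105959513 (Atp5f1, named Atp5pb in RefSeq), chr2:73911277-73911576 (Atp5g3), chr9:50603800-50604099 (Sdhd) and chr5:115348909-115349208 (Cox6a1).
Cox7a2: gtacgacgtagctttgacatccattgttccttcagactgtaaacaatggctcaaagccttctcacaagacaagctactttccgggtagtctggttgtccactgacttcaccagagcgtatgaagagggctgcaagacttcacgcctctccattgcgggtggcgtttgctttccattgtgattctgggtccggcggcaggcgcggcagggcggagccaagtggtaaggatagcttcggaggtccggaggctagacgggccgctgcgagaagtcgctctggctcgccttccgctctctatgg
Atp5f1: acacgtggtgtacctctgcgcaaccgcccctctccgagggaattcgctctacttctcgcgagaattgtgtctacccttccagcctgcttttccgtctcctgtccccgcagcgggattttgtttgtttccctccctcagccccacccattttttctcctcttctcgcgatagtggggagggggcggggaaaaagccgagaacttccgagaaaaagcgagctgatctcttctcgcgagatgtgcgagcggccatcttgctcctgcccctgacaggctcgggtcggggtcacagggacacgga
Atp5g3: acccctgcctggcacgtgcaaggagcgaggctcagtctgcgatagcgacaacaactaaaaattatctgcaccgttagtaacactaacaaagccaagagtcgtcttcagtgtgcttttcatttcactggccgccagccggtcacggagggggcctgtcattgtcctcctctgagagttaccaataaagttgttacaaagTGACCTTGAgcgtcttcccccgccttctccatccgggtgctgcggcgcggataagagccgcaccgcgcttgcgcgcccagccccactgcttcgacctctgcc
Sdhd: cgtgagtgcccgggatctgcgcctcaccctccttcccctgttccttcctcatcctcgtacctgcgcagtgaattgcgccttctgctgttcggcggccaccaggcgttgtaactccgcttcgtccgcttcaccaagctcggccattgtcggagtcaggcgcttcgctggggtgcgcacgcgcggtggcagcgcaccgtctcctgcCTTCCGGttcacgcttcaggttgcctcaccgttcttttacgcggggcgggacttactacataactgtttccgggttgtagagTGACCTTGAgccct
Cox6a1: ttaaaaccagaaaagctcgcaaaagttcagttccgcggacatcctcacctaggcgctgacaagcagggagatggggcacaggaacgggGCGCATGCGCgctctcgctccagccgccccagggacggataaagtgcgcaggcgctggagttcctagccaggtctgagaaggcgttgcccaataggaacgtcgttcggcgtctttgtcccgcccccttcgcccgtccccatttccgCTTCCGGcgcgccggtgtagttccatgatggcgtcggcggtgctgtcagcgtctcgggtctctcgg
The capitals in Atp5g3 mark the reverse complement of the estrogen-related receptor element, starting at position -52 from the first transcribed base (position 0). In Sdhd they mark an ETS match at -46 and the receptor element at 36, inside the transcribed part, both reversed. In Cox6a1 they mark the NRF1 site at -162, which reads the same on both strands, and a reversed ETS match at -16.

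Nuclear genes of complex I leaned slightly upwards too. Of 36 tested nuclear genes of complex I, which feeds electrons from NADH into the same chain, 34 were above 0, with a median log2 fold change of 0.07, and none passed the edgeR test. At an unadjusted p under 0.05, 7 of the 36 were higher and none lower, against 11.1% and 10.5% of all genes. Ndufa13 (0.17 ± 0.05, edgeR adjusted p = 0.0849) and Ndufa12 (0.25 ± 0.08, edgeR adjusted p = 0.102), both accessory subunits, had the smallest p-values. Ndufa4, a subunit now assigned to complex IV despite its name, was at 0.15 ± 0.05 (edgeR adjusted p = 0.140).

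Among assembly factors, 1 of 25 tested for complex IV rose, and none of 4 for complex II, 6 for complex III or 4 for ATP synthase passed. Over all genes, 3.28% were called and 4.15% had every KO library above every WT library. Coa3, which acts in the translation and early assembly of the catalytic complex IV subunit Cox1, was at 23.0, 21.2, 20.5, 23.3 and 22.5 CPM in WT 1 to WT 5 and at 27.1, 26.1, 24.8 and 28.6 CPM in KO 1 to KO 4. Its groups did not overlap, and its log2 fold change was 0.27 ± 0.06 (edgeR adjusted p = 0.0359). The call was lost without KO 1 and KO 4 (0.20, adjusted p = 0.250), and with WT 3, WT 4, WT 5, KO 1 or KO 4 left out alone, where the value was 0.23 to 0.29. For complex II, Sdhaf2, which attaches flavin to Sdha, had a value above 0 (0.15 ± 0.04, edgeR adjusted p = 0.0797) and Sdhaf1, which inserts iron-sulphur clusters into Sdhb, one below 0 (-0.30 ± 0.11, edgeR adjusted p = 0.161). Neither passed, and the 2 had opposite signs. Of the complex III factors, Lyrm7 (-0.33 ± 0.19, edgeR adjusted p = 0.341) and Uqcc3 (0.09 ± 0.06, edgeR adjusted p = 0.389) had the smallest p-values. In the ATP synthase list, the inner membrane protease gene Oma1 was at 0.15 ± 0.06 (edgeR adjusted p = 0.187) and the F1 assembly factor Atpaf1 at -0.13 ± 0.09 (edgeR adjusted p = 0.427).

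Of the mitochondrially encoded partners, 2 were tested and neither passed. mt-Cytb, the cytochrome b of complex III, was at 3186 ± 358 CPM in WT and 3271 ± 270 CPM in KO (0.04 ± 0.08, edgeR adjusted p = 0.825), and mt-Co1, the catalytic subunit of complex IV, at 6761 ± 785 and 6617 ± 399 CPM (-0.03 ± 0.08, edgeR adjusted p = 0.849). The direction of mt-Co1 rested on WT 1, its highest library: without it, mt-Co1 was at 0.04 and mt-Cytb at 0.11. mt-Co3 had 1 count and mt-Atp6 had 0 counts over all libraries, while mt-Co2 and mt-Atp8 were not analysed here. The counting method was not given, so these counts do not show that the transcripts were absent. Slc25a3, which imports the phosphate that ATP synthase needs, was lower on average, from 400.2 ± 37.0 CPM to 354 ± 8.75 CPM with no overlap (-0.18 ± 0.06, edgeR adjusted p = 0.110). Every KO library lay below every WT library for 4.92% of all genes. The ATP synthase inhibitor gene Atpif1 was at 0.21 ± 0.10 (edgeR adjusted p = 0.242). None of 11 tested regulators of nuclear respiratory genes passed, with Hcfc1 at 0.12 ± 0.04 (edgeR adjusted p = 0.0767) and Hif1a at 0.23 ± 0.09 (edgeR adjusted p = 0.188) nearest. Esrra, the relative of Esrrg that these cells expressed, was at -0.02 ± 0.06 (edgeR adjusted p = 0.875), while Esrrb had only 2 counts in total, and Ppargc1a, which encodes a coactivator of these receptors, had 12.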

How the data were processed

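The deposited file holds raw read counts by gene symbol for 9 total RNA libraries, made with a stranded TruSeq kit per the labels' protocols. STAR 2.7, DESeq2 and the mm10 build are named, without a role, in the submitters' processing notes. The counting method, annotation and choice of strand were not given in the sources used here. Reads of overlapping or near-identical genes therefore cannot be assigned with certainty. Samples were grouped by title.

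The genes and lists were chosen with earlier results of these data known. The test was edgeR 4.0.16 (R 4.3.3) on the counts of all genes (TMM scaling, default expression filter on group, robust quasi-likelihood fit, two-sided), with Benjamini-Hochberg adjustment over all genes tested and a threshold of 0.05. The test was checked on simulated counts. CPM used TMM-scaled library sizes, with a prior count of 2 on the log2 scale. Intervals are 95%, and a floor of 3 counts covers counting error only. Positions and transcript lengths came from GENCODE M21 (mm10), which placed all 50 genes; length is the shortest principal transcript.

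Named genes were those called, the 3 smallest p-values and 2 highest levels per length in each complex, isoform families, all Sdh genes, and from each related list the called genes or else the 2 with the smallest p. Atp5c1, Atp5h, Atp5k, Atp5l, Atp5s and Atp5sl, genes named for the excess of WT 2, and Wdr77 and Esrra were added after their values were seen.

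Replicate numbers in titles were not shown to pair the mice: deviations of same-numbered libraries correlated at 0.0990, -0.0622, 0.100 and -0.0669. By the number in the bracketed library name the values were 0.0990, 0.0868, 0.0571 and -0.260. Such correlations cannot exclude pairing. No pair of libraries agreed within sampling noise, since the chi-square per degree of freedom was at least 2.6. The alternatives comprised DESeq2 1.42.0, limma-voom (limma 3.58.1), other scalings and filters, a threshold of 0.1, leaving libraries out, replicate blocks and removal of the length trend. Leaving out WT 2, KO 1 and KO 4 together was chosen after seeing the data.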

Additional observations from a re-analysis of the deposited data

Results flagged for a closer look

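In the WT group, 5 genes had 1 library far from the other 4 by Dixon's test at 95%, among 104 checks of a group and a value, and chance flags about 1 in 20 groups. WT 2 was high for Atp5h, at 112 CPM against 105 CPM in the next library, and WT 3 was low for Cox6b2, at 0.966 CPM against 1.13 CPM. WT 1 was high for mt-Cytb (3818 CPM, next 3099 CPM), mt-Co1 (8145 CPM, next 6563 CPM) and Slc25a3 (466 CPM, next 391 CPM). The causes were not tested.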

How the results depend on the processing

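The count of 2 genes called is not stable. It was 4 with limma-voom sample weights, 0 without KO 1 and KO 4, 0 without WT 2 as well, 5 at a threshold of 0.1, and 0 to 6 with 1 library left out. The 1 call in complex IV became 2 with RLE size factors, DESeq2, limma-voom sample weights or a mean CPM of at least 5, 0 without KO 1 and KO 4 (also without WT 2 as well), and 0 to 4 with 1 library left out. The 1 call in ATP synthase became 2 with sample weights and 0 without KO 1 and KO 4 (also without WT 2 as well), and ranged from 0 to 2 with 1 library left out, as complex III ranged from 0 to 1. The 1 related gene called became 3 with DESeq2 or sample weights, 0 without KO 1 and KO 4 (also without WT 2 as well), and 0 to 3 with 1 library left out. The count of genes called among all genes tested, 418 with all libraries, was 919 with DESeq2, 817 with sample weights, 697 without WT 2 and 97 without WT 3. It was not taken at a threshold of 0.1. The median log2 fold change with 1 library left out ran from 0.03 to 0.07 for complex II, 0.02 to 0.10 for complex III, 0.07 to 0.13 for complex IV and 0.0737 to 0.137 for ATP synthase. The log2 ratio of summed CPM was 0.00615 for complex II without KO 1 and KO 4, and 0.0364 for ATP synthase as a mean of log2 CPM.

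The replicate block by title number, which leaves out WT 5, gave 0 calls among the 43 genes, 0 in complex IV, 0 in ATP synthase and 0 among related genes, with 26 of all genes called. The replicate block by bracketed number, which leaves out WT 2, gave 3 calls among the 43, 2 of them in complex IV. In that fit 456 of all genes, or 3.61%, were called. Neither numbering was shown to pair the mice.

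Without KO 1 and KO 4, the number of the 43 genes above 0 went from 38 to 26. Among the genes named by value, the log2 fold change then turned negative for Sdhd (-0.00960), Sdhc (-0.00593), Uqcrh (-0.0242), Cycs (-0.00591), Cox8a (-0.00928), Atp5g1 (-0.0132) and Atp5g3 (-0.00916), and positive for mt-Co1 (0.0375). Without WT 2 as well, it was -0.0141 for Uqcrh, -0.00518 for Cycs and 0.0149 for mt-Co1. With 1 library left out, values ran from -0.00526 to 0.0737 for Uqcrh, -0.184 to 0.163 for Cox6b2, -0.00736 to 0.111 for mt-Cytb and -0.0656 to 0.0447 for mt-Co1. The value was 0.0369 for mt-Co1 with sample weights and -0.000628 for mt-Cytb with the length trend removed. The causes were not tested. The 38 genes above 0 were 35 to 39 with 1 library left out. Low counts limit Atp5l and Cox6b2, and Cox4i2, Cox6a2 and Cox7a1 could not be tested.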
